A study of Auxenochlorella pyrenoidosa with 8 samples.

Results

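Auxenochlorella pyrenoidosa FACHB-9, a unicellular green alga also called Chlorella pyrenoidosa, was compared after 4 h in air with cells taken on 5% CO2. Cells had grown photoautotrophically on 5% CO2 for 5 days and were then bubbled with air. The 0 h group (n = 2 libraries) was taken at the shift and the 4 h group (n = 2) after 4 h, all of strain FACHB-9 with no other treatment given. The genes described were those whose mean over these 4 libraries reached 1 RPKM, and 9301 of the 10283 genes in the deposited table met this. RPKM counts the reads of a gene relative to its length in kilobases and to the total reads of the library. The lowest mean kept was 1.00 RPKM and the highest left out was 0.994 RPKM. The 982 genes left out held between 0.152% and 0.245% of the reads of a library, so the 9301 genes covered nearly all of the reads assigned to genes.

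Green algae fix CO2 with Rubisco, an enzyme that also reacts with oxygen and works poorly when CO2 is scarce. In air many of them switch on a carbon-concentrating mechanism, in which bicarbonate transporters and carbonic anhydrases raise the CO2 level around Rubisco, as worked out mainly in Chlamydomonas reinhardtii. When less carbon is fixed, salvage of photorespiratory products, light harvesting and storage of starch and lipid are also known to be adjusted. The files used here pair gene numbers with no name or product. Lists of transporters, carbonic anhydrases, photorespiration, Calvin cycle, antenna and storage genes were prepared, and 0 of their members could be looked up. Genes are therefore given by number, level, structure and place, and no function is assigned to any of them.

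The 0 h libraries held 16706278 and 23106515 reads in genes and the 4 h libraries 18489074 and 35463138. The comparison has no culture that stayed on 5% CO2 for the same 4 h, so the change to air cannot be told apart from culture age or from handling. RPKM is relative to the reads of a library, so a change in the total RNA of a cell would not show in it. The 4 h libraries were close to each other (r = 0.993 across the 9301 genes, which are not independent), with a median SD between them of 0.082 on the log2 scale and 15 genes apart by 2-fold or more. The 0 h libraries were further apart (r = 0.968, median SD 0.20), and 243 genes differed 2-fold or more between them. The second 0 h library was closer to the first library labelled 1 h (r = 0.981) than to its own replicate. Of the libraries labelled 1 h and 24 h, the second at 1 h and the first at 24 h resembled each other most (r = 0.992), against 0.956 and 0.936 with their own replicates. The second at 24 h was closest to the first at 1 h (r = 0.980). The libraries labelled 1 h and 24 h do not enter the fold changes at 4 h. They do enter the estimate of the spread, and so affect which genes pass the test.

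After 4 h in air 207 genes had risen and 965 had fallen, with the rises fewer and reaching larger fold changes. Of the genes tested, 2.23% rose, 10.4% fell and 12.6% changed in either direction (limma on log2(RPKM + 1), Benjamini-Hochberg adjusted p under 0.05, two-sided). Across all 9301 genes the log2 fold change ran from -4.84 to 7.54. The median gene stood at -0.20, with the 5th percentile at -1.22 and the 95th at 0.73. Among genes that rose the median log2 fold change was 1.29 (2.44-fold) and the 95th percentile was 4.80. Among genes that fell the median was -1.05 (2.07-fold) and the 5th percentile was -2.27.

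The tails of the distribution had different shapes. By 2-fold or more, 145 called genes rose and 547 fell. By 4-fold the counts were 54 and 68, by 8-fold 31 and 18, by 16-fold 19 and 6, and by 32-fold 9 and 0. Among called genes falls thus outnumbered rises at 2-fold and 4-fold, and rises outnumbered falls from 8-fold on. Another count, not limited to called genes, asked each of the 4 ratios of a 4 h library to a 0 h library to reach the same size. By this count 137 genes (1.47%) were higher by 2-fold and 350 (3.76%) were lower. At 4-fold 59 genes were higher and 51 lower, at 8-fold 34 and 12, and at 16-fold 23 and 0, so by this count rises outnumbered falls from 4-fold on. Both counts added 1 RPKM to each value, so the fold of a fall cannot exceed the 0 h RPKM plus 1. The median gene tested stood at 14.7 RPKM at 0 h, and the 0 h level sets no such limit on rises. The fold of a rise cannot exceed the 4 h RPKM plus 1, and the median gene stood at 12.4 RPKM at 4 h. For a given 0 h level the tails are therefore not on equal terms.

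**Figure D1:**
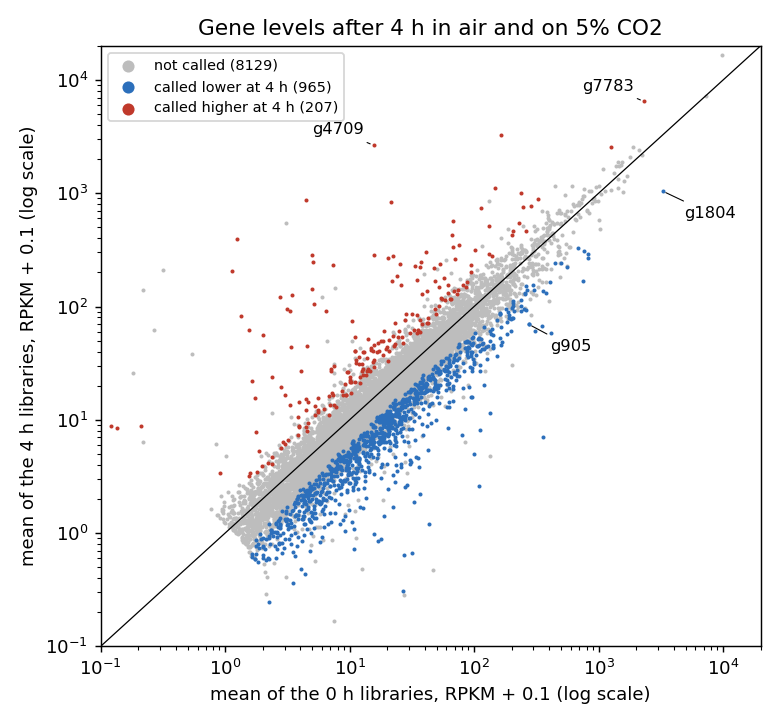
Mean RPKM of the 0 h libraries (horizontal) and of the 4 h libraries (vertical), each with 0.1 RPKM added, on log axes for the 9301 genes tested. Points are genes, coloured by the limma call, and the line marks equal levels. Called rises (207) reach far above the line, and called falls (965) form a dense band below it.

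The balance of rises and falls moved with the scaling between libraries. The trimmed mean of log ratios, which brings the median gene to 0, gave 325 rises and 440 falls, so 57.5% of its calls fell beside 82.3% on the deposited scale. All 207 rising genes and 440 of the 965 falling ones were called in the same direction there, where the scaling moves every gene upward by construction. Quantile normalization gave 268 rises and 374 falls, and limma voom on recovered reads 303 and 430. When the fit held the 0 h and 4 h libraries and no others, 413 genes rose (4.44%) and 1486 fell (16%). That fit leaves out the spread between the libraries labelled 1 h and between those labelled 24 h. A total of 194 rising and 404 falling genes were called in the same direction by limma on the deposited scale, with trimmed-mean scaling, with voom and in the fit limited to these 4 libraries. The number of calls rested on each library: it was 160 without 0 h library 1, 1595 without 0 h library 2, 40 without 4 h library 1 and 59 without 4 h library 2, where a group left with 1 library is taken to vary as much as the rest.

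Fold changes were similar in library pairs that share no sample. The log2 change from 0 h to 4 h in the libraries numbered 1 correlated with that in the libraries numbered 2 at r = 0.85 (rho = 0.79) across genes, and with the numbers crossed at r = 0.75. Each of the 4 pairs put the median of all genes below 0, at -0.25 and -0.22 against 0 h library 1 and at -0.17 and -0.15 against 0 h library 2. The median of the genes that rose lay at 1.40 and 1.42 against 0 h library 1 and at 1.23 and 1.21 against library 2. The genes that fell stood at -1.20 and -1.19 and at -0.90 and -0.93. The choice of 0 h library thus changed the size of the falls more than the choice of 4 h library did. The groups did not overlap for 69.9% of all genes, 21% in the upward and 48.9% in the downward direction, so absence of overlap alone says little about a gene in groups of 2.

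Calls were counted in 5 equal bins of genes by their mean over the 4 libraries. The 4 h level is part of this mean, so a rise itself moves a gene towards a higher bin and a fall towards a lower one. In the lowest bin (median 2.67 RPKM) 14 rose and 212 fell, which is 0.752% and 11.4% of the bin. In the middle bin (median 14.0 RPKM) 31 rose and 217 fell. In the highest bin (median 83.7 RPKM) 89 rose and 150 fell, or 4.78% and 8.06%. The median log2 fold change of these bins was -0.27, -0.20 and -0.05, so the median gene was lower at 4 h in each of them on the deposited scale. The pseudocount of 1 RPKM shrinks the fold changes of low genes.

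In read share, the genes that rose went from a small to a large part of the measured RNA. The 207 rising genes held 2.35% and 2.58% of the reads in the 0 h libraries and 9.86% and 9.60% in the 4 h libraries. Their mean share went from 2.46% ± 0.166 to 9.73% ± 0.179 (SD, n = 2 each). The 965 falling genes held 10.8% and 9.01% at 0 h and 3.98% and 3.80% at 4 h, a mean of 9.93% ± 1.30 and 3.89% ± 0.128. The 8129 genes that were tested and not called stayed at 87.4% ± 1.15 and 86.2% ± 0.308 of the reads. These groups were chosen by the same contrast, so the shares describe its size and are no further test. The 54 genes that rose 4-fold or more went from 0.378% and 0.397% of the reads to 4.76% and 4.61%. The 68 that fell 4-fold or more went from 1.05% and 1.12% to 0.156% and 0.149%.

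**Figure D2:**
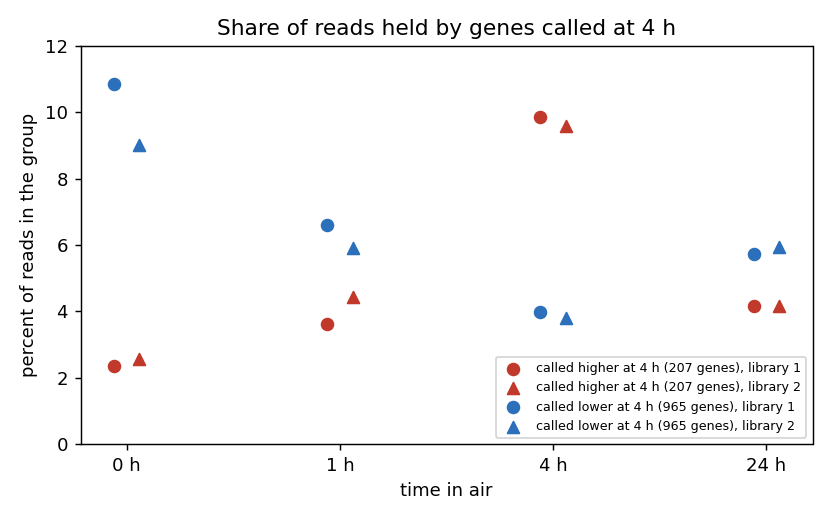
Percent of the reads of each library (vertical) in the 207 genes called higher and the 965 called lower at 4 h, by time in air (horizontal). Circles are libraries numbered 1 and triangles those numbered 2. Both 4 h libraries lie near 9.7% for the rising genes and near 3.9% for the falling genes, and the 1 h and 24 h libraries lie between the 0 h and 4 h levels.

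At the other times the same groups lay between these levels. The rising genes held 3.62% and 4.43% of the reads in the libraries labelled 1 h and 4.16% and 4.17% in those labelled 24 h. The falling genes held 6.62% and 5.92% and then 5.72% and 5.93%. The 0 h and 4 h values chose the genes, and the 1 h and 24 h libraries were also part of the estimate of the spread.

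Between the 0 h and 4 h means 18.5% of the reads changed place between genes, 3412 genes gaining and 6844 losing share. Single pairs of a 4 h and a 0 h library differed by 16.6% to 23.0% of the reads. The 0 h libraries differed from each other by 13.9% and the 4 h libraries by 4.61%, so a large part of the distance between times was also seen between the 0 h replicates. Gains were concentrated and losses spread out. The 92 genes with the largest gains made up 50% of all the share gained, and 429 genes were needed for 50% of the share lost. In the 4 pairs of single libraries these counts were 72 to 108 genes for gains and 360 to 448 for losses. A similar asymmetry was present between the 0 h replicates, where 112 genes made up 50% of the share that was higher in library 2 and 358 genes 50% of the share higher in library 1.

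**Figure D3:**
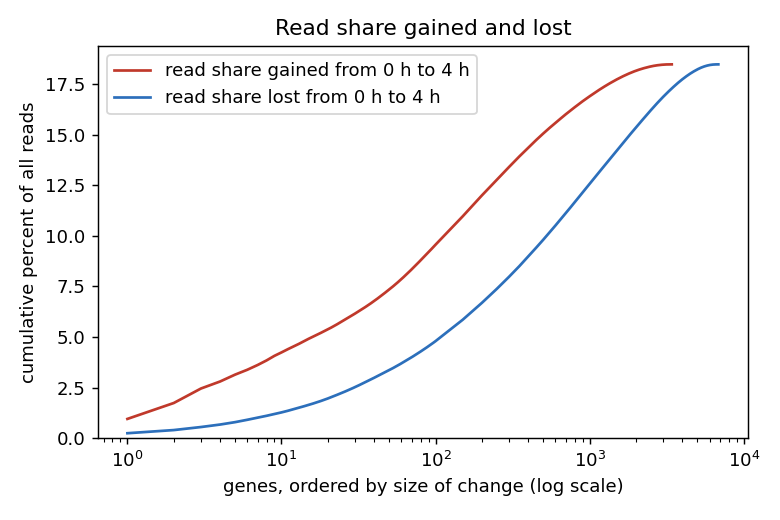
Cumulative percent of all reads gained (red) and lost (blue) from the 0 h mean to the 4 h mean (vertical), over genes ordered by the size of their change on a log axis (horizontal). Both curves end at 18.5% of the reads, and the curve of gains climbs earlier: 92 genes reach 50% of the gain and 429 genes 50% of the loss.

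The 10 genes with the largest gains together went from 2.11% and 2.60% of the reads to 6.84% and 6.35%, and 8 of them were called. Their folds in mean RPKM ran from 1.54 to 200, with a median of 7.92, so the set mixed genes that were already abundant with genes that had been scarce. The 10 with the largest losses went from 2.08% and 1.68% to 0.644% and 0.563%, and 6 of them were called. Of all genes tested 2.23% were called higher and 10.4% lower, and both sets of 10 were chosen by the change from 0 h to 4 h that the calls also use. The losing genes were abundant at the start, with a median rank of 52 at 0 h and 255.5 at 4 h among all genes by read share. The gaining genes had a median rank of 595.5 at 0 h and 10 at 4 h.

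Reads were also less evenly spread over genes at 4 h than at 0 h. The 100 most abundant genes of each library accounted at 0 h for 20.2% and 23.4% of the reads and at 4 h for 26.0% and 25.6%, a mean of 21.8% ± 2.26 and 25.8% ± 0.308 (SD, n = 2 each). The number of genes that made up 50% of the reads was 778 and 681 at 0 h and 520 and 535 at 4 h. Neither measure overlapped between 0 h and 4 h. With 2 libraries a side an exact permutation test cannot go below p = 0.33 (two-sided). In the libraries labelled 1 h the 100 most abundant genes held 26.3% and 24.1% of the reads. In those labelled 24 h they held 25.4% and 25.8%, so this concentration was not particular to 4 h. Of the 100 genes most abundant at 0 h on average, 76 were also among the 100 at 4 h. The 0 h replicates shared 76 as well and the 4 h replicates 95. Of the 24 genes that entered this list by 4 h, 10 were called higher and 5 came from a rank beyond 1000 at 0 h, the furthest from rank 7504. Of the 24 that left it, 5 were called lower and none was beyond rank 437 at 4 h. Over all genes tested 2.23% were called higher and 10.4% lower, and the same change in abundance moves a gene in this list and enters its call.

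In absolute level the genes that rose moved from ordinary to high values. Their median was 14.0 RPKM at 0 h, near the median of 14.7 RPKM of all genes tested, and 47.4 RPKM at 4 h. The number of rising genes at 100 RPKM or more went from 17 to 69. Falling genes went from a median of 17.6 to 6.44 RPKM, and those at 100 RPKM or more from 86 to 23. The change reached 100 RPKM in size for 51 rising and 47 falling genes and 1000 RPKM for 4 and 1. Among genes that were not called it reached 100 RPKM for 138 and 1000 RPKM for 1. That gene had the largest gain of all genes tested, 6777 RPKM. It stood at 9250 and 10366 RPKM at 0 h and at 17001 and 16170 RPKM at 4 h, 1.69-fold in the means, and just missed the threshold (limma adjusted p = 0.053). Few genes crossed from near silence to clear expression or back. Under 1 RPKM in both 0 h libraries and at 10 RPKM or more in both 4 h libraries were 5 genes, and 3 genes had the reverse pattern. With 1 RPKM as the only limit, 18 genes crossed it upward and 184 downward. This count sets no margin around 1 RPKM. It also uses the deposited scale, on which the median gene stood at a log2 fold change of -0.20.

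The genes with the largest changes were listed by fold, by read share and by absolute level, taking 50 of the 207 rising and 50 of the 965 falling genes each time. Of the 50 rising genes with the largest fold, 34 were also among the 50 with the largest gain in share and 30 among the 50 with the largest gain in RPKM, and 30 were in all 3 lists. The lists by share and by RPKM had 43 genes in common. Of the 50 falling genes with the largest fold, 7 were among the 50 with the largest loss in share and 8 among those with the largest loss in RPKM, and 6 were in all 3 lists. The lists by share and by RPKM had 32 falling genes in common. The rising and falling counts are not on equal terms, since the same number of genes was taken from pools of different size.

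The gene with the largest gain in read share among those called was g7783, a minus-strand gene on scaffold01012 (2626639 to 2628927) with 4 exons and 951 coding bp. It stood at 2302 and 2308 RPKM in the 0 h libraries and at 6710 and 6248 RPKM in the 4 h libraries. The 0 h values were nearly the same and both 4 h values lay far above them. It rose from 2305 ± 4.12 to 6479 ± 327 RPKM (SD, n = 2 each), 2.81-fold, or 1.49 ± 0.26 (SE) on the log2 scale of the fit (limma adjusted p = 0.016). It took 0.527% of all reads at 0 h, as the gene of rank 5, and 1.48% at 4 h, as the gene of rank 2. In the libraries labelled 1 h it had 3762 and 2902 RPKM and in those labelled 24 h 3286 and 4762 RPKM. Quantile normalization gave a log2 fold change of 0.82 and an adjusted p of 0.11. The adjusted p was 0.080 without 0 h library 1, 0.14 without 4 h library 1 and 0.14 without 4 h library 2.

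Second in gain was g4709, a scarce gene at 0 h that became one of the most abundant. It lies on scaffold00629 (710771 to 713754, minus strand) and has 4 exons and 1005 coding bp. Its values were 13.6 and 17.5 RPKM at 0 h, from 680 and 1203 reads, and 2818 and 2486 RPKM at 4 h, from 155417 and 262949 reads. It rose 171-fold in the means, from 15.5 ± 2.69 to 2652 ± 235 RPKM (SD, n = 2 each), or 7.33 ± 0.66 (SE) on the log2 scale of the fit (limma adjusted p = 0.0033). Its share of the reads went from 0.00464% to 0.791% and its rank from 4563 to 4. The libraries labelled 1 h had 125 and 602 RPKM and those labelled 24 h 248 and 175 RPKM, all above both 0 h values and below both 4 h values. Its adjusted p reached 0.052 without 4 h library 1.

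Of the genes that fell, g1804 lost the largest share of reads. Its model, on scaffold00168 (1227 to 2344, minus strand), has 3 exons and 261 coding bp, with a stop codon and no start codon. It stood at 4183 and 2354 RPKM in the 0 h libraries and at 1108 and 982 RPKM in the 4 h libraries. The groups did not overlap, and in RPKM the 0 h values lay further from each other than 0 h library 2 lay from the 4 h values. On the log2 scale of the fit this order was reversed. It fell from 3269 ± 1293 to 1045 ± 88.7 RPKM (SD, n = 2 each), 3.13-fold, or -1.59 ± 0.34 (SE) on the log2 scale of the fit (limma adjusted p = 0.027). Its share went from 0.365% to 0.117% of the reads and its rank from 6 to 123. In the libraries labelled 1 h it had 1644 and 1066 RPKM and in those labelled 24 h 1170 and 1411 RPKM. The second 1 h value lay below that of 4 h library 1. The limma adjusted p was 0.049 with trimmed-mean scaling and 0.048 with voom. The adjusted p was 0.13 without 0 h library 1, 0.15 without 4 h library 1 and 0.19 without 4 h library 2, and the log2 fold change moved to -1.17 without 0 h library 1.

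The second largest loss was that of g905 on scaffold00066 (681427 to 689080, minus strand), which has 16 exons and 1608 coding bp. It had 191 and 356 RPKM at 0 h and 70.6 and 68.9 RPKM at 4 h. In the libraries labelled 1 h it had 159 and 112 RPKM and in those labelled 24 h 106 and 74.8 RPKM. Of the 0 h libraries, library 2 was the higher, the reverse of g1804, while the 4 h values were within 2 RPKM of each other. It fell from 274 ± 117 to 69.8 ± 1.18 RPKM (SD, n = 2 each), 3.92-fold, or -1.89 ± 0.33 (SE) on the log2 scale of the fit (limma adjusted p = 0.017), and from rank 33 to rank 278. The log2 fold change moved to -2.34 without 0 h library 1 and to -1.44 without 0 h library 2. Without 4 h library 1 the adjusted p was 0.12 and without 4 h library 2 it was 0.13.

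**Figure D4:**
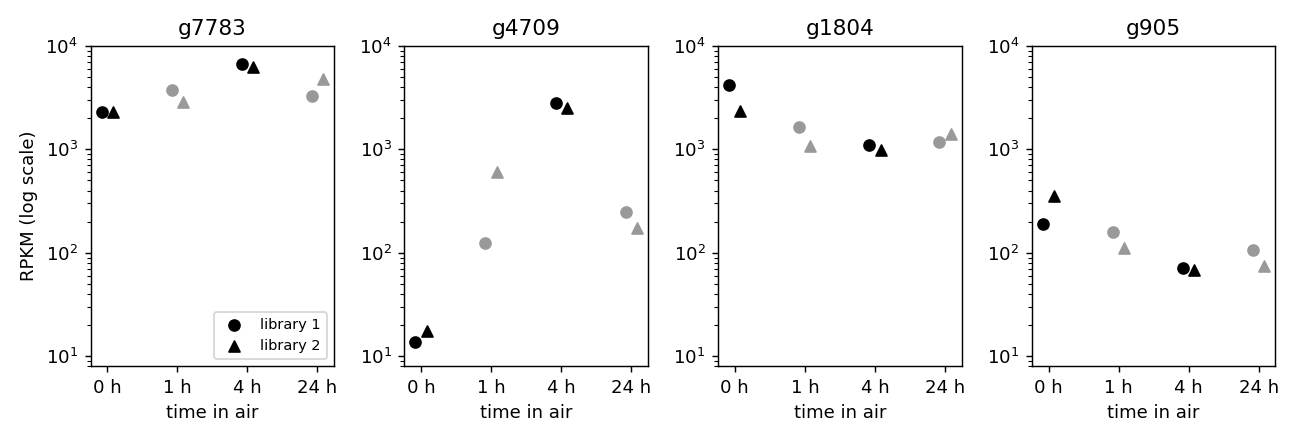
RPKM on a log axis (vertical) of the 4 named genes in each library, by time in air (horizontal), with circles for libraries numbered 1 and triangles for those numbered 2. Black points are the 0 h and 4 h libraries and grey points the libraries labelled 1 h and 24 h. The 4 h values of g7783 and g4709 lie above all their other values, and those of g905 lie below all its others. For g1804 the second 1 h value lies below that of 4 h library 1.

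Very large differences did not always pass the test. By 16-fold or more on the log2(RPKM + 1) scale 27 genes were higher at 4 h, on 18 scaffolds, with a median of 3.19 RPKM at 0 h and 143 RPKM at 4 h. Together they went from 0.0456% and 0.0506% of the reads to 2.64% and 2.56%. Of these, 19 were called and 8 were not. None of the 8 overlapped between 0 h and 4 h, and all 27 were called in the fit limited to the 0 h and 4 h libraries. Over all genes tested 21% did not overlap in the upward direction and 4.44% were called higher in that fit. The 27 genes were chosen by the same 0 h and 4 h values, so these counts are no further support. The 8 genes differed widely between libraries of the other times. Their median gap between the libraries labelled 1 h was 4.76 on the log2 scale, beside 1.79 for the 19 called genes, and between the libraries labelled 24 h it was 3.54 beside 1.25. In the 27 genes together the 1 h libraries held 0.167% and 0.715% of the reads and the 24 h libraries 0.394% and 0.222%.

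The longest run of neighbouring genes called in the same direction consisted of 4 genes on scaffold00514 (2019054 to 2036037), singled out after its values were seen. It was the only run of 3 or more rising genes, against 8 runs of 3 falling genes. These counts stand beside 2.23% of tested genes called higher and 10.4% called lower. Whether either number of runs exceeds what these shares would give was not tested. The first gene of the rising run, with 14 exons on the minus strand, went from 4.73 and 5.16 RPKM at 0 h to 246 and 246 RPKM at 4 h. The second, with 5 exons on the minus strand, went from 4.02 and 4.70 to 925 and 819 RPKM. Both were scarce at 0 h and abundant at 4 h. The third, with 3 exons on the minus strand, went from 22.8 and 20.1 to 983 and 683 RPKM. The fourth, on the plus strand, has 231 bp of coding length and went from 147 and 180 to 3343 and 3238 RPKM.

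Every 4 h value in this run was above every 0 h value of the same gene, as in all 207 genes called higher. The run was found among these calls, so neither this nor the p-values that follow are a further test of it. The log2 fold changes were 5.38 (SE 0.52), 7.35 (SE 1.52), 5.19 (SE 0.45) and 4.33 (SE 0.27), with limma adjusted p-values of 0.0035, 0.033, 0.0021 and 0.00066. The gaps between the models were 535, 2966 and 1425 bp, so none of them overlapped. Together the run went from 0.0198% to 0.862% of the reads. This gain of 0.842 percentage points lies between those of g4709 (0.786) and g7783 (0.955). The sources used here do not say whether reads were counted by strand, and reads running past the end of a model into the next were not tested.

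**Figure D5:**
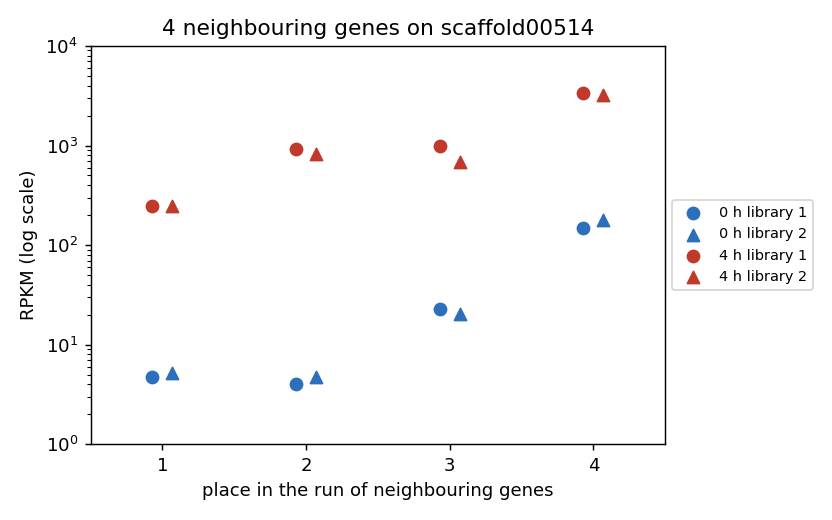
RPKM on a log axis (vertical) of the 4 neighbouring rising genes on scaffold00514, by their place in the run (horizontal), in the 0 h (blue) and 4 h (red) libraries. Circles are libraries numbered 1 and triangles those numbered 2. Each gene is 20.1-fold to 200-fold higher at 4 h in the means.

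The genes beside the named ones changed in part. The neighbour of g7783 on the opposite strand starts 745 bp away in the other direction (scaffold01012, 2629673 to 2632747). It rose from 236 and 244 RPKM to 998 and 1009 RPKM, or 2.06 ± 0.30 (SE) on the log2 scale of the fit (limma adjusted p = 0.0090), whereas the neighbour on the other side had 5.73 and 4.43 RPKM at 0 h and 4.09 and 3.98 RPKM at 4 h (adjusted p = 0.34). Those flanking g4709 had log2 fold changes of 1.56 and 1.00, which limma did not call (adjusted p = 0.075 and 0.064). With the 0 h and 4 h libraries alone their adjusted p was 0.0050 and 0.026. Beside the falling g905, the next gene along the scaffold (691810 to 695080) rose from 11.1 and 12.5 to 34.7 and 36.9 RPKM (log2 fold change 1.52, SE 0.27, limma adjusted p = 0.017). The gene on its other side (677777 to 680460) had 27.2 and 17.3 RPKM at 0 h and 19.5 and 12.3 RPKM at 4 h, a log2 fold change of -0.46 that was not called (limma adjusted p = 0.34).

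Over the 7363 pairs of adjacent tested genes, 9 pairs rose together, 104 fell together and 38 held 1 gene of each direction. Of the sides of a rising gene, 5.20% faced another rising gene, beside 2.35% of all sides of all pairs. Without the 4 genes of the run on scaffold00514, a count added after the data were seen, 6 pairs rose together and the shares were 3.55% and 2.30%. Of the sides of a falling gene, 13.8% faced another falling gene, beside 10.2%. The log2 fold changes of neighbours correlated at r = 0.13 for the 2324 head-to-head pairs and 0.13 for the 2656 pairs on the same strand. For the 2383 tail-to-tail pairs r was 0.03. These values describe genes measured in the same libraries. Over all pairs r was 0.098, and 0.071 without the run. Pairs within the run are on the same strand or head to head, and r by orientation was not recomputed without them. The calls were spread over the assembly. On the 25 scaffolds with at least 100 tested genes, the share of genes that rose ran from 0% to 3.74% and the share that fell from 5.61% to 13.9%.

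The gene models of rising, falling and uncalled genes had a median of 7 exons in each group. The median coding length was 951 bp in rising, 987 bp in falling and 1014 bp in uncalled genes, and the middle 50% of rising genes ran from 573 to 1576.5 bp. The spliced part made up 44.2%, 44.7% and 43.7% of the gene span. Models with both a start and a stop codon were 88.9%, 84.1% and 86.2% of these groups. A single coding exon was found in 0.483% of rising genes (1 gene), 2.07% of falling genes (20) and 1.40% of uncalled genes (114). More than 1 predicted transcript was found for 5 of the 207 rising, 14 of the 965 falling and 122 of the 8129 uncalled genes. From the shortest to the longest of 5 bins by coding length, 2.47%, 2.41%, 1.94%, 1.93% and 2.37% of genes rose and 10.7%, 11.1%, 10.9%, 9.89% and 9.26% fell. These measures describe the calls and were not tested.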

How the data were processed

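Messenger RNA was sequenced from 8 libraries at 4 times. The deposited table holds RPKM per gene and library, per the file headers, made by the authors with TopHat and HTSeq, per the submitters' processing notes. The sources used here give no versions, strand setting or assembly name. Gene models deposited by the authors, with 1-based positions and a score per prediction, are from AUGUSTUS, per the file headers. Each RPKM times the gene's end minus start and the library's scale gave a whole number of reads within 0.01 reads for 100% of values, so the deposited RPKM refers to the full span, introns included (median spliced part 43.5%). Read shares use these reads.

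On log2(RPKM + 1), limma 3.58.1 (R 4.3.3) was fitted with the 8 libraries as 4 groups of 2, using trend and robust moderation (residual degrees of freedom 4, prior degrees of freedom 3.68 in the median gene). The 4 h minus 0 h contrast was tested over the 9301 genes whose mean over the 0 h and 4 h libraries reached 1 RPKM. As a check for a library deposited more than once, counts over genes with at least 10 reads were compared between replicates. The chi-square per degree of freedom was 116 between the 0 h and 20.2 between the 4 h libraries, so neither pair was taken as 1 library deposited again. This check cannot tell separate cultures from repeated preparations of the same culture. Named genes are the 2 called genes without overlap that gained, and the 2 that lost, most read share. Members, lists and settings were chosen with earlier results of these data known. The labels call the replicates independent experiments. Alternatives changed the pseudocount, filter, scaling, test, libraries and block.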

Additional observations from a re-analysis of the deposited data

How the results depend on the processing

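On the deposited scale 1172 genes were called, of which 82.3% fell. Calls numbered 765 with trimmed-mean scaling (325 higher, 440 lower, 57.5% fell), 642 with quantile normalization (374 lower, 58.3% fell), 733 with voom on recovered reads (430 lower, 58.7% fell) and 1899 with the 0 h and 4 h libraries alone (413 higher, 1486 lower, 78.3% fell). A filter at 5 RPKM left 79.3% falling. The first 3 settings bring the median log2 fold change from -0.20 to within 0.02 of 0 by construction. Leaving out 1 library gave 40 to 1595 calls, 16 to 377 higher and 24 to 1218 lower, with 60.0% to 76.4% falling. A group left with 1 library was taken to vary as much as the rest. The genes called with the 0 h and 4 h libraries alone gained 9.58 percentage points of reads on the rising side (7.26 for the 207 genes) and changed by -9.02 on the falling side (-6.04 for the 965). The log2 fold changes of the 4 named genes and the changes in read share kept their sign in every alternative run for them. No gene was called in the opposite direction. The named genes and the called groups were chosen by the same contrast, so this is no further test, and counts of calls cannot reverse. The median log2 fold change, -0.197 on the deposited scale, was 0.0145 with quantile normalization and 0.00036 with voom. With the replicate block 866 genes were called (147 higher, 719 lower), and all 4 named genes stayed called. Deviations from the group means correlated at 0.35 between 0 h and 4 h libraries with the same number, but the labels do not say that a number marks a shared experiment, so the block was not used. Pseudocounts of 0.1 and 5 RPKM, no filter, and a fit with no trend or robust moderation, kept every count of calls within 1.5 times. Depth gave the highest precision in 4 h library 2, where a single read over 1 kb was worth 0.0282 RPKM, against 0.0599 in 0 h library 1.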
